A study of Mus musculus with 51 samples.

Results

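Signalling between the mouse epiblast and the extra-embryonic ectoderm (ExE) was followed at 10 genes: the secreted ligands Nodal, Bmp4, Wnt3, Fgf4 and Fgf8, the receptor Fgfr2, the proprotein convertases Furin and Pcsk6, the Nodal antagonist Lefty2, and Cyp26a1, which degrades retinoic acid. The genes were chosen by name from the known signalling circuit, out of 20558 protein-coding autosomal genes of the RefSeq annotation of GRCm38.p6 and not by a threshold on a measured value, although earlier results of these data were known. Their chromatin was read in 497 windows of 1 kb over the genes and 5 kb around them, out of 2380322 windows with reads, and in 81 peaks at the genes, out of 150793 peaks in 6 tables of allelic read counts.

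The epiblast gives rise to the embryo proper, and the adjoining ExE is trophoblast that contributes to the placenta. Epiblast cells secrete the Nodal precursor, and the convertases Furin and Pcsk6, known from the ExE, cleave it. Nodal sustains Bmp4 in the ExE, Bmp4 acts back on the epiblast through Wnt3, and Fgf4 from the epiblast maintains trophoblast progenitors through Fgfr2. H3K4me3 marks active or poised gene starts, H3K27me3 is deposited by Polycomb and H3K36me3 lies over the bodies of transcribed genes.

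The 3 marks were profiled by ultra-low-input native ChIP-seq in epiblast and ExE dissected at embryonic day 6.5, with 2 libraries for each of 18 groups (36 ChIP libraries in all) and 15 input libraries. B6/CAST embryos had C57BL6/Babr mothers and CAST/Ei fathers, and CAST/B6 embryos came from the reciprocal cross; both are wild type and gave 4 libraries for each tissue and mark. matDKO/CAST embryos had mothers of a B6/129 background with floxed Dnmt3a and Dnmt3b deleted by Zp3-cre, which is active in growing oocytes, and CAST fathers, so that the eggs lacked both de novo DNA methyltransferases while the embryos were Dnmt3a -/+ and Dnmt3b -/+. Each library was made from a pool of 4 epiblasts or 8 ExE, and p-values therefore measure the spread between pools. The chromatin of a pool was split between the 3 antibodies and the inputs, so that libraries of different marks can share a pool.

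Depth, read from the RPKM step of a single read, was 4.01M to 17.9M mapped reads for H3K4me3, 3.68M to 22.9M for H3K27me3 and 2.09M to 12.6M for H3K36me3 (M, in units of 1e6), and no 2 libraries of a group held identical values. The dissected tissues were checked by marker genes. Of 10 epiblast markers, H3K4me3 was lower in wild-type ExE at 6 (Pou5f1, Sox2, Nanog, Otx2, Fgf5 and Tdgf1), where 8.7% of all genes were. The list of 10 ExE markers includes Fgfr2, one of the genes studied, and Bmp8b, Fgf5 and Tdgf1 stand both in a marker list and in a pathway list. Of the ExE markers, Fgfr2 included, H3K36me3 over the gene body was higher in ExE at 9 and H3K4me3 at 3, where 30.7% and 2.58% of all genes were. H3K4me3 at Elf5 and Esrrb stayed under 0.63 RPKM in every wild-type library of both tissues. Some visceral endoderm markers also differed. H3K36me3 was higher in ExE at 7 of 11 genes, where 30.7% of all genes were. H3K4me3 was higher at 6 and lower at 2, Foxa1 (-1.46) and Sox17 (-0.94), where 2.58% and 8.7% of all genes were. H3K27me3 was lower at 3, Amn (-1.63), Gata4 (-1.63) and Sox17 (-1.44), where 11.4% were. The H3K36me3 sum over the list was 11.8 to 16.1 RPKM in ExE against 5.20 to 6.44 RPKM in epiblast, with no marker at 0 in all libraries. H3K36me3 was higher in ExE at 1 of 6 primitive streak and mesoderm markers, 1 of 6 ectoplacental cone and giant cell markers and 1 of 5 markers of maternal decidua and blood. Each of these is a smaller share than the 30.7% of all genes. It was lower at 1 of the 5 decidua and blood markers, where 5.72% of all genes were. In the other marks, H3K4me3 was higher at Hand1 (1.11) and lower at Gsc (-1.28), and H3K27me3 was lower at Hand1 (-1.75), T (-0.74), Mesp1 (-0.50) and Hand2 (-0.74). Their part in the results for the signalling genes was not tested. In pooled tissue, fewer cells of a type and less signal per cell cannot be told apart.

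Levels are given as RPKM, reads scaled by window length and by the mapped reads of the library, averaged over the windows within 2 kb of the gene start for H3K4me3 and H3K27me3 and over the gene body for H3K36me3. Tissue differences are log2 ratios of ExE over epiblast on the log2(RPKM + 0.5) scale with their standard error (SE), which understates the change at low levels, and were tested with limma over all 20558 genes with Benjamini-Hochberg adjustment and a threshold of 0.05. In wild-type embryos H3K4me3 was higher in ExE at 1 of the 10 genes, Bmp4, against a background of 2.58% of all genes, and lower at 4, Nodal, Wnt3, Fgf4 and Fgf8, against 8.7%. H3K27me3 was higher at Nodal and Fgf8 (2 of 10, background 8.54%) and lower at Bmp4, Cyp26a1, Fgfr2 and Pcsk6 (4 of 10, background 11.4%). H3K36me3 was higher over 5 gene bodies, Bmp4, Cyp26a1, Fgfr2, Furin and Pcsk6, where the background was 30.7%, and lower over Nodal and Lefty2 (2 of 10, background 5.72%). The median difference over the 10 genes was -0.47 for H3K4me3, -0.11 for H3K27me3 and 0.07 for H3K36me3, and over all genes -0.0025, -0.03 and 0.10. All 18 of these called differences had the same direction in B6/CAST alone and in CAST/B6 alone, where 12 and 8 of them passed the test. In B6/CAST alone these were 2 for H3K4me3, 3 for H3K27me3 and 7 for H3K36me3, where 3.64%, 3.68% and 38.2% of all genes were called in either direction, and in CAST/B6 alone 4, 3 and 1, where 5.72%, 8.01% and 4.96% were.

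The balance of calls over all genes depended on the scaling. With the library medians aligned, the median H3K4me3 difference of all genes moved from -0.0025 to 0.25, and the calls over all genes changed from 530 higher and 1789 lower to 6936 higher and 1904 lower. Scaling between a low and a high percentile of each library gave 4650 higher and 2107 lower. For H3K27me3 the calls were 1756 higher and 2351 lower, against 1486 and 3161 with the percentile scaling, 3515 and 3029 with edgeR on recovered reads, and 3564 and 2009 over the whole gene and 5 kb around it. For H3K36me3 they were 6306 higher and 1176 lower, against 4424 and 2179 with aligned medians and 4554 and 3806 with edgeR. Taken over all alternatives, the 18 called differences of the signalling genes were estimated 371 times, kept their sign each time and kept the call 337 times. These include the settings without a matDKO/CAST library, where the wild-type estimate and its sign could not change and only the call could.

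**Figure D1:**
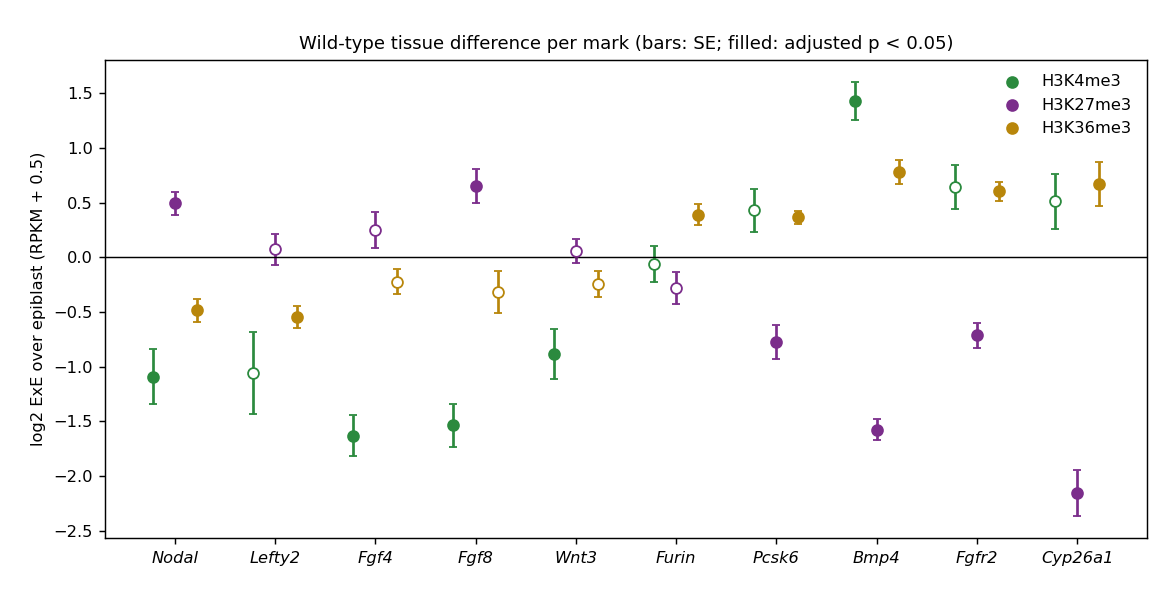
Log2 ratio of ExE over epiblast in wild-type embryos for each of the 10 genes (horizontal axis) and each mark (colours). Points are limma estimates, bars are SE, and filled points passed the adjusted threshold of 0.05. The H3K4me3 values of Fgf4, Fgf8, Nodal and Wnt3 lie below 0 and that of Bmp4 above, and Bmp4 and Cyp26a1 have the lowest H3K27me3 values.

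Nodal, the ligand that patterns the epiblast, carried more H3K4me3 in the epiblast. Around its start (chr10:61417972-61425338, + strand) the 4 wild-type epiblast libraries, B6/CAST before CAST/B6, gave 13.1, 11.1, 9.02 and 16.8 RPKM and the 4 ExE libraries 7.24, 6.86, 3.36 and 5.24 RPKM. Every epiblast library lay above every ExE library, and the log2 difference was -1.09 ± 0.25 (limma adjusted p = 0.0215). H3K27me3 went the other way at lower levels, with 0.252, 0.484, 0.997 and 0.898 RPKM in epiblast and 0.684, 0.758, 1.55 and 1.50 RPKM in ExE. The tissues overlapped because both CAST/B6 epiblast libraries exceeded both B6/CAST ExE libraries, while within each cross the ExE was higher, and the difference of 0.49 ± 0.11 passed the test (limma adjusted p = 0.0101). With 1 kb on either side of the start it was 0.35 (adjusted p = 0.0789). H3K36me3 over the Nodal body fell by 0.49 ± 0.11 on the log2 scale in ExE (limma adjusted p = 0.00922), with -0.78 ± 0.15 within B6/CAST and -0.19 ± 0.15 within CAST/B6 (adjusted p = 0.00493 and 0.478). The H3K4me3 call was lost when any of 5 single wild-type libraries was left out, with adjusted p between 0.0586 and 0.0932.

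The Nodal promoter, chr10:61417722-61418021, is shown for comparison with the promoters of the other ligands. It holds 5 CpG, against a median of 7 in 32851 RefSeq promoters of the same length, and 54% G and C. All promoters shown here are RefSeq sequences of GRCm38.p6 from 250 bases before to 50 after a RefSeq start, written in the direction of transcription with each CG dinucleotide in capitals.
Nodal: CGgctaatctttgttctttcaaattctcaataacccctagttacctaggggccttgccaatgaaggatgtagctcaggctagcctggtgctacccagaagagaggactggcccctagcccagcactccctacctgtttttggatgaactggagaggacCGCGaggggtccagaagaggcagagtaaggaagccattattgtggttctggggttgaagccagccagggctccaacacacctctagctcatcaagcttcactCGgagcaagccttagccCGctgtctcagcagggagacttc

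Lefty2, the secreted antagonist that restrains Nodal, had less H3K36me3 in the ExE, as Nodal did. Over its body (chr1:180893108-180899107, + strand) H3K36me3 was 0.859, 0.715, 1.29 and 1.17 RPKM in epiblast and 0.361, 0.348, 0.751 and 0.674 RPKM in ExE. The ExE was lower within each cross, the ranges overlapped between crosses, and the difference was -0.55 ± 0.10 (limma adjusted p = 0.00478). H3K4me3 at its start was 4.08, 4.53, 7.93 and 1.48 RPKM in epiblast and 2.09, 2.60, 0.913 and 1.31 RPKM in ExE. The CAST/B6 epiblast library replicate 3 fell within the ExE range, and the difference of -1.06 ± 0.38 did not pass (limma adjusted p = 0.127). Without that library it was -1.58 (adjusted p = 0.00246). Same-numbered H3K4me3 libraries of the 2 tissues deviated together, and with the replicate number as a block Lefty2 (-1.49, limma adjusted p = 0.0147) and Pcsk6 (0.46, adjusted p = 0.0373) were also called. This made 2 genes higher and 5 lower, where 2.65% and 8.12% of all genes were called with the block. In CAST/B6 only replicate 2 was present in both tissues, so that the blocked fit takes that cross from 1 library pair. For the tissue difference it does not use CAST/B6 epiblast replicate 3, which fell within the ExE range, or CAST/B6 ExE replicate 1. The blocked values of the genes called without the block were 1.44 at Bmp4, -1.47 at Fgf4, -1.26 at Fgf8, -0.73 at Nodal and -0.88 at Wnt3 (limma adjusted p = 0.0140, 0.0140, 0.0140, 0.0167 and 0.0350), and Fgfr2 (0.49), Cyp26a1 (0.49) and Furin (0.018) were not called. H3K27me3 at the Lefty2 start differed by 0.07 ± 0.14 (limma adjusted p = 0.766), and this value changed sign with the percentile scaling.

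Furin and Pcsk6 encode the convertases that process the Nodal precursor. At the annotated 5′ end of Furin (chr7:80389194-80405441, − strand) H3K4me3 was 4.16, 3.14, 2.85 and 2.69 RPKM in epiblast and 3.82, 2.78, 2.38 and 3.27 RPKM in ExE, and the tissues overlapped (log2 difference -0.06 ± 0.16, limma adjusted p = 0.937). The strongest H3K4me3 window lay 2.94 kb inside the gene, with 35.3 ± 7.92 RPKM (SD, n = 4) in epiblast and 30.8 ± 6.58 RPKM in ExE, near a second RefSeq start. H3K36me3 over the Furin body was 0.655, 0.565, 0.968 and 0.826 RPKM in epiblast and 1.24, 0.954, 1.13 and 1.21 RPKM in ExE. The ExE was higher within each cross and one CAST/B6 epiblast library overlapped the lowest ExE library, with a difference of 0.39 ± 0.10 (limma adjusted p = 0.0162) that was 0.30 (adjusted p = 0.239) with the percentile scaling and was lost without any of 4 single libraries (adjusted p up to 0.0606).

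The internal Furin promoter, chr7:80402763-80403062 on the − strand, is shown because it lies beside the strongest H3K4me3 of the gene. It holds 51 CpG, more than 99.4% of RefSeq promoters, while the promoter at the 5′ end holds 7.
Furin, internal start: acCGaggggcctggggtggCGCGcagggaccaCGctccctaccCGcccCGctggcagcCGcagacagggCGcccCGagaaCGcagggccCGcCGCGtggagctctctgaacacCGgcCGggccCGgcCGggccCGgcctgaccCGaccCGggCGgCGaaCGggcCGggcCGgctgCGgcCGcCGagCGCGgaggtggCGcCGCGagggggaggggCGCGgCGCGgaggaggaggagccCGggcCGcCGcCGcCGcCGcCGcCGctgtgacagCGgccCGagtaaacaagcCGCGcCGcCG

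Pcsk6 (chr7:65862136-66050386, + strand) was higher in H3K36me3 and lower in H3K27me3 in the ExE. H3K36me3 over its body was 0.449, 0.468, 0.403 and 0.397 RPKM in epiblast and 0.820, 0.706, 0.666 and 0.606 RPKM in ExE, with no overlap (0.37 ± 0.06, limma adjusted p = 0.00355). H3K27me3 at its start was 2.56, 2.70, 4.58 and 4.23 RPKM in epiblast and 1.31, 1.39, 2.17 and 2.54 RPKM in ExE. Each epiblast library exceeded each ExE library, and the difference was -0.77 ± 0.15 (limma adjusted p = 0.00788). The difference was local: over the whole gene and 5 kb around it H3K27me3 differed by -0.03 (adjusted p = 0.766). H3K4me3 at the start differed by 0.43 ± 0.20 (limma adjusted p = 0.250), and with the percentile scaling the H3K36me3 difference had an adjusted p of 0.0834.

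Bmp4, the ligand that the ExE sends to the epiblast, differed between the tissues in all 3 marks, with more H3K4me3 and H3K36me3 and less H3K27me3 in the ExE. H3K4me3 around its start (chr14:46383525-46390669, − strand) was 9.07, 5.96, 5.36 and 4.17 RPKM in epiblast and 15.8, 13.6, 17.1 and 21.7 RPKM in ExE. H3K27me3 was 2.86, 3.58, 5.35 and 5.13 RPKM in epiblast and 0.970, 1.05, 1.05 and 1.11 RPKM in ExE. H3K36me3 over the body was 0.557, 0.437, 0.430 and 0.368 RPKM in epiblast and 1.14, 1.06, 1.15 and 1.16 RPKM in ExE. For each mark the 4 libraries of one tissue lay outside the range of the other. The log2 differences were 1.43 ± 0.17 for H3K4me3, -1.58 ± 0.10 for H3K27me3 and 0.78 ± 0.11 for H3K36me3 (limma adjusted p = 0.00114, 9.13e-05 and 0.00167), and these calls held under each scaling, filter and region tried and without any single library. Within B6/CAST alone the H3K4me3 difference was 0.95 ± 0.25 and missed the threshold (limma adjusted p = 0.0798), while within CAST/B6 it was 1.92 ± 0.25 (adjusted p = 0.00538). Along the locus, H3K27me3 was higher in all 4 epiblast libraries than in any ExE library in 12 of 18 windows, and H3K4me3 was higher in ExE in 7. Peaks of H3K27me3 over the Bmp4 start spanned 21.5 and 25 kb in epiblast, where they covered the whole gene and its 5 kb flanks, and 6.5 and 12.5 kb in ExE.

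The Bmp4 promoter, chr14:46390620-46390919 on the − strand, is shown because both marks switched over it. It holds 12 CpG and 64% G and C, against a median of 52.7% over all promoters.
Bmp4: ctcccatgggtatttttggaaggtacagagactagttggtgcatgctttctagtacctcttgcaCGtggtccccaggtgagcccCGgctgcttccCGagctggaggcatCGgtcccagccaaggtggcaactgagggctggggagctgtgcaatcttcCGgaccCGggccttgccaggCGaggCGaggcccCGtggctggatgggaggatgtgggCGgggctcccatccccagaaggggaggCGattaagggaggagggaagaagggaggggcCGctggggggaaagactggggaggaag

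Wnt3, which responds to Bmp4 in the posterior epiblast, had more H3K4me3 in the epiblast. At its start (chr11:103774175-103818021, + strand) the values were 29.3, 19.3, 21.1 and 13.5 RPKM in epiblast and 12.8, 12.6, 7.04 and 11.2 RPKM in ExE. The tissues did not overlap, and the difference was -0.89 ± 0.23 (limma adjusted p = 0.0352). This call was lost without any of 5 single wild-type libraries or of both matDKO/CAST ExE libraries in turn (adjusted p 0.0565 to 0.139) and with 1 kb on either side of the start (adjusted p = 0.0627). H3K27me3 at the start was 2.38, 2.40, 2.95 and 3.05 RPKM in epiblast and 3.01, 2.43, 3.17 and 2.66 RPKM in ExE, which overlapped (0.05 ± 0.11, limma adjusted p = 0.778; the sign turned with the percentile scaling). The H3K27me3 peak over the start was wider in ExE, 109 and 115 kb against 8.5 and 32.5 kb in epiblast. H3K36me3 over the body differed by -0.24 ± 0.12 (limma adjusted p = 0.158).

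Fgf4 and Fgf8 are fibroblast growth factors of the epiblast and primitive streak. H3K4me3 at the Fgf4 start (chr7:144861386-144865245, + strand) was 11.4, 10.9, 9.99 and 11.8 RPKM in epiblast and 3.98, 4.80, 1.98 and 2.76 RPKM in ExE. At the Fgf8 start (chr19:45736491-45742941, − strand) it was 18.5, 15.8, 10.3 and 15.6 RPKM in epiblast and 6.60, 6.61, 2.74 and 4.21 RPKM in ExE. Neither gene showed overlap, and the differences were -1.63 ± 0.19 and -1.54 ± 0.20 (limma adjusted p = 0.000987 and 0.00131). H3K27me3 at the Fgf8 start was 2.64, 2.51, 4.41 and 3.78 RPKM in epiblast and 5.64, 4.51, 5.98 and 5.57 RPKM in ExE. All ExE libraries were higher, and 11 of the 17 windows of the locus separated the tissues in this direction. The difference of 0.65 ± 0.15 passed (limma adjusted p = 0.0160), and its adjusted p rose to between 0.0524 and 0.0702 without any of 5 single libraries. At the Fgf4 start H3K27me3 was high in both tissues, 3.21, 2.70, 5.73 and 5.26 RPKM in epiblast and 4.66, 3.97, 6.11 and 5.11 RPKM in ExE, with overlap and no call (0.25 ± 0.16, limma adjusted p = 0.322; 0.41 and adjusted p = 0.0378 over the gene and 5 kb around it). The extent of the peaks differed: over the Fgf4 start they spanned 328.5 and 331 kb in ExE and 13.5 and 12.5 kb in epiblast, and over the Fgf8 start 40.5 and 40.5 kb in ExE and 10 and 9.5 kb in epiblast. Peak widths come from the deposited peak lists, 1 for each cross, tissue and mark, and have no replicate check. H3K36me3 differed by -0.22 ± 0.11 over Fgf4 and -0.31 ± 0.19 over Fgf8 (limma adjusted p = 0.161 and 0.248).

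The Fgf4 promoter, chr7:144861136-144861435, is shown because it lies inside the wide ExE domain of H3K27me3. It holds 28 CpG, more than 86.4% of promoters, and 69.7% G and C.
Fgf4: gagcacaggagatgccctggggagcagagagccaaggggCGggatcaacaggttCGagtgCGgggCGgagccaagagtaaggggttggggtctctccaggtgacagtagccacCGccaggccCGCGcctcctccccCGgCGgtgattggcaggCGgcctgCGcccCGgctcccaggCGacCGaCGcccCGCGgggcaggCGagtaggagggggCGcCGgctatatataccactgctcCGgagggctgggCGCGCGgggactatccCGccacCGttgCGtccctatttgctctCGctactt

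Fgfr2, the receptor through which Fgf4 acts on the ExE (chr7:130162451-130266808, − strand), was lower in H3K27me3 and higher in H3K36me3 in the ExE. H3K27me3 at its start was 1.38, 2.00, 2.08 and 2.12 RPKM in epiblast and 0.771, 0.895, 0.978 and 1.17 RPKM in ExE, without overlap (-0.71 ± 0.11, limma adjusted p = 0.00284). H3K36me3 over the body was 0.513, 0.580, 0.849 and 0.787 RPKM in epiblast and 1.46, 1.17, 1.35 and 1.18 RPKM in ExE, again without overlap (0.60 ± 0.09, limma adjusted p = 0.00203; 0.56 and adjusted p = 0.0595 with the percentile scaling). H3K4me3 was 16.9, 11.01, 16.3 and 10.1 RPKM in epiblast and 19.4, 17.3, 23.7 and 24.4 RPKM in ExE. All ExE libraries were higher, but the difference of 0.65 ± 0.20 did not pass over all genes (limma adjusted p = 0.0744), while it did with only genes of at least 0.5 RPKM (adjusted p = 0.00290), with aligned medians (0.90) and with edgeR (0.68). Of the 115 windows over the gene and its flanks, 38 had higher H3K36me3 in all ExE libraries, 25 had higher H3K4me3 there, and 22 had higher H3K27me3 in all epiblast libraries, 11 of them in 1 run.

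The promoter at the annotated Fgfr2 5′ end, chr7:130266759-130267058 on the − strand, is shown for contrast with Fgf4: it holds 4 CpG and 43.7% G and C, and the strongest H3K4me3 window lay 1.31 kb inside the gene, at 34.1 ± 8.32 RPKM (SD, n = 4) in epiblast and 51.7 ± 10.7 RPKM in ExE.
Fgfr2: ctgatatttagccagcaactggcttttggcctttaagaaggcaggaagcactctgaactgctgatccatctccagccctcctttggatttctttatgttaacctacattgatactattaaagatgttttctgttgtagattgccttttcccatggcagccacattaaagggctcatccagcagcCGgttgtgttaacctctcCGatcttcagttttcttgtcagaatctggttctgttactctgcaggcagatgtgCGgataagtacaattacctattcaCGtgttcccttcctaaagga

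Cyp26a1, which clears retinoic acid, had the largest H3K27me3 difference of the 10 genes. At its start (chr19:37697738-37701536, + strand) H3K27me3 was 5.79, 8.93, 7.23 and 7.47 RPKM in epiblast and 0.994, 1.30, 1.55 and 1.17 RPKM in ExE. The tissues did not overlap, and the difference was -2.16 ± 0.21 (limma adjusted p = 0.000315), with the call kept within each cross, under each scaling, filter and region tried and without any single library. In 12 consecutive windows of the 15 over the locus, all 4 epiblast libraries exceeded all 4 ExE libraries. H3K36me3 over the body was 0.446, 0.715, 1.03 and 1.06 RPKM in epiblast and 2.53, 1.46, 1.11 and 1.35 RPKM in ExE. The ExE libraries were all higher, and the difference was 0.67 ± 0.20 (limma adjusted p = 0.0331). It was 1.19 ± 0.29 within B6/CAST and 0.16 ± 0.29 within CAST/B6 (limma adjusted p = 0.0133 and 0.784), and the call was lost without any of 6 single libraries (adjusted p 0.0638 to 0.109) and with the percentile scaling (adjusted p = 0.196). H3K4me3 did not pass, with 19.6, 11.9, 17.4 and 10.1 RPKM in epiblast and 24.6, 19.8, 15.2 and 24.2 RPKM in ExE (0.51 ± 0.25, limma adjusted p = 0.2999), and the tissues overlapped; with aligned medians the difference was 0.77 and passed. Its H3K4me3 was at the 80.1 percentile of all genes in epiblast and the 94.4 percentile in ExE, and its H3K27me3 at the 98.4 and 79.0 percentiles.

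The Cyp26a1 promoter, chr19:37697558-37697857, belongs to a start 70 bases inside the gene and is shown because it carried high H3K4me3 in both tissues and high H3K27me3 in the epiblast. It holds 26 CpG, more than 83.8% of promoters.
Cyp26a1: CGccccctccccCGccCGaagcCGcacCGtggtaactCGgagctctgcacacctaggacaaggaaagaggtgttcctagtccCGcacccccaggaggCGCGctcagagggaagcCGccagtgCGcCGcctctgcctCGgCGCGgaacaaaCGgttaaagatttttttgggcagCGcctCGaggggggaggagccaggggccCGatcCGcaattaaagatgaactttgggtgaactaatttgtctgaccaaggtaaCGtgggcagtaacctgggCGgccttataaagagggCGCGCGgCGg

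The dinucleotide searched in these promoters was CG, which reads the same on both strands. RefSeq promoters were matched for 8 of the 10 genes, 9 promoters in all with the 2 of Furin, and none was matched for Lefty2 and Fgf8. The 6-base motif AGGTCA, part of retinoic acid response elements, was searched on both strands and occurred in 0 of the 9 promoters and in 16.3% of all promoters. Only this exact form was searched, and the printed Cyp26a1 promoter holds near matches that were not counted. The search therefore cannot show whether a promoter lacks a retinoic acid response element. GGGCGG, an Sp1 box, occurred in 6 of the 9 promoters and in 35.7% of all promoters, CCAAT in 4 and 37.4%, TATAAA in 2 and 13.6%, and AATCCACA in 0 and 0.855%. These matches describe the letters of the 9 promoter windows, of which 6 are printed here.

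**Figure D2:**
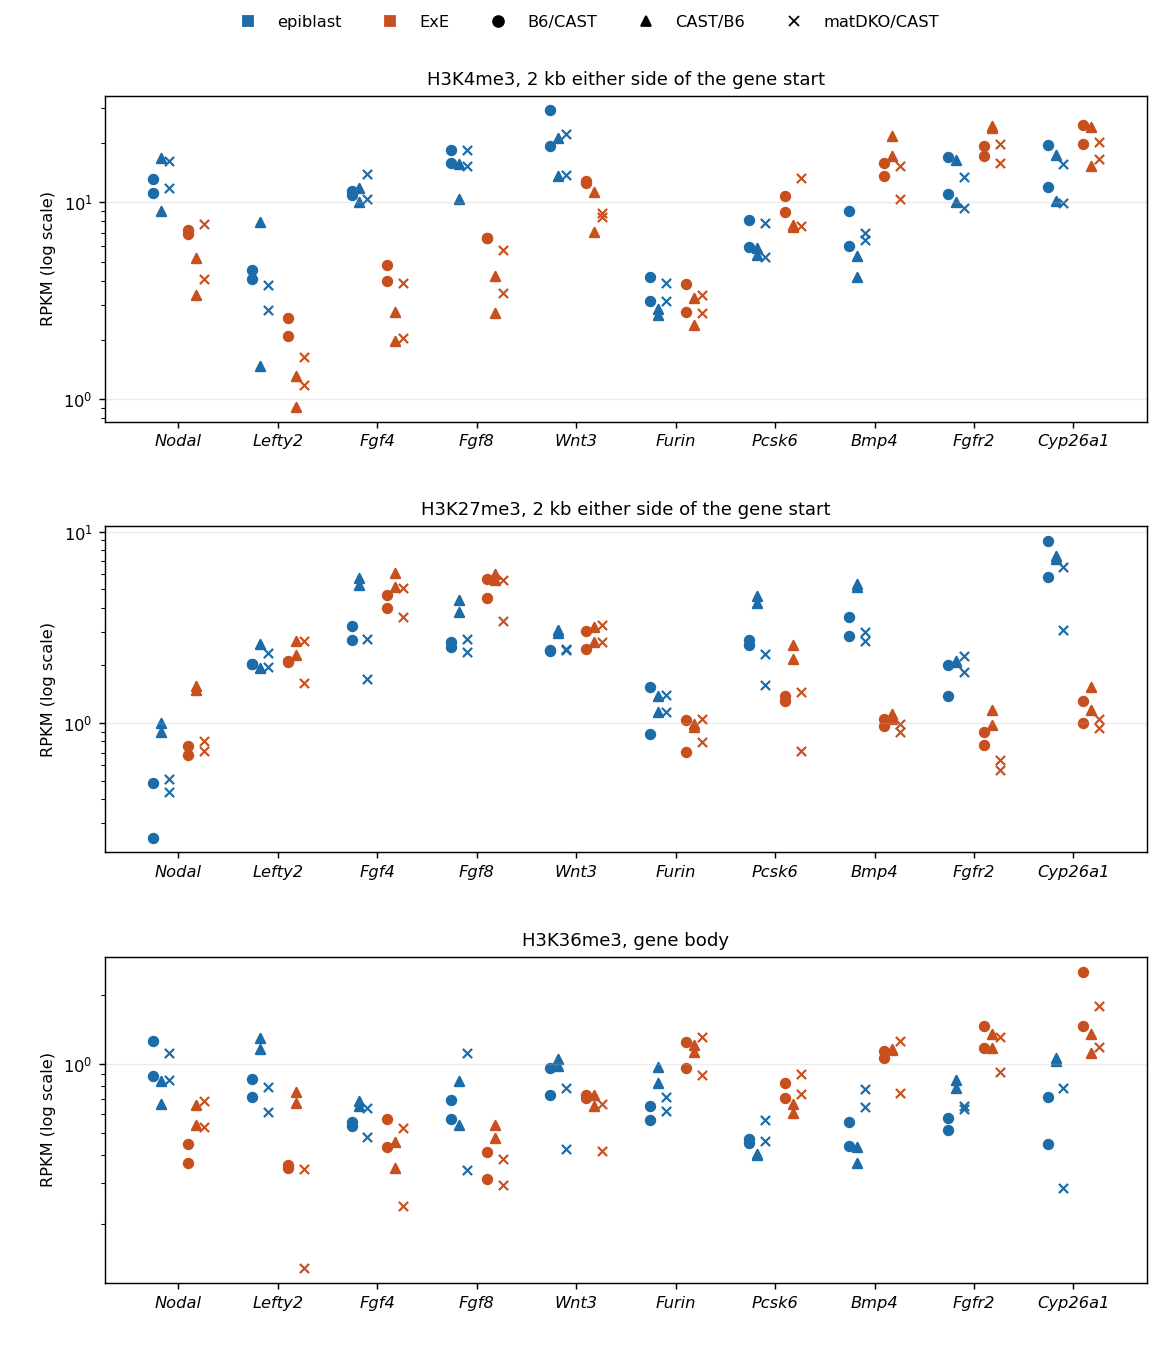
RPKM of each library at the 10 genes on a log axis, with 1 panel for each mark, colour for tissue and symbol shape for cross (crosses are matDKO/CAST). The wild-type libraries of the tissues separate for Bmp4 in all panels and for Cyp26a1 in H3K27me3 and H3K36me3, while Furin H3K4me3 values intermingle.

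**Figure D3:**
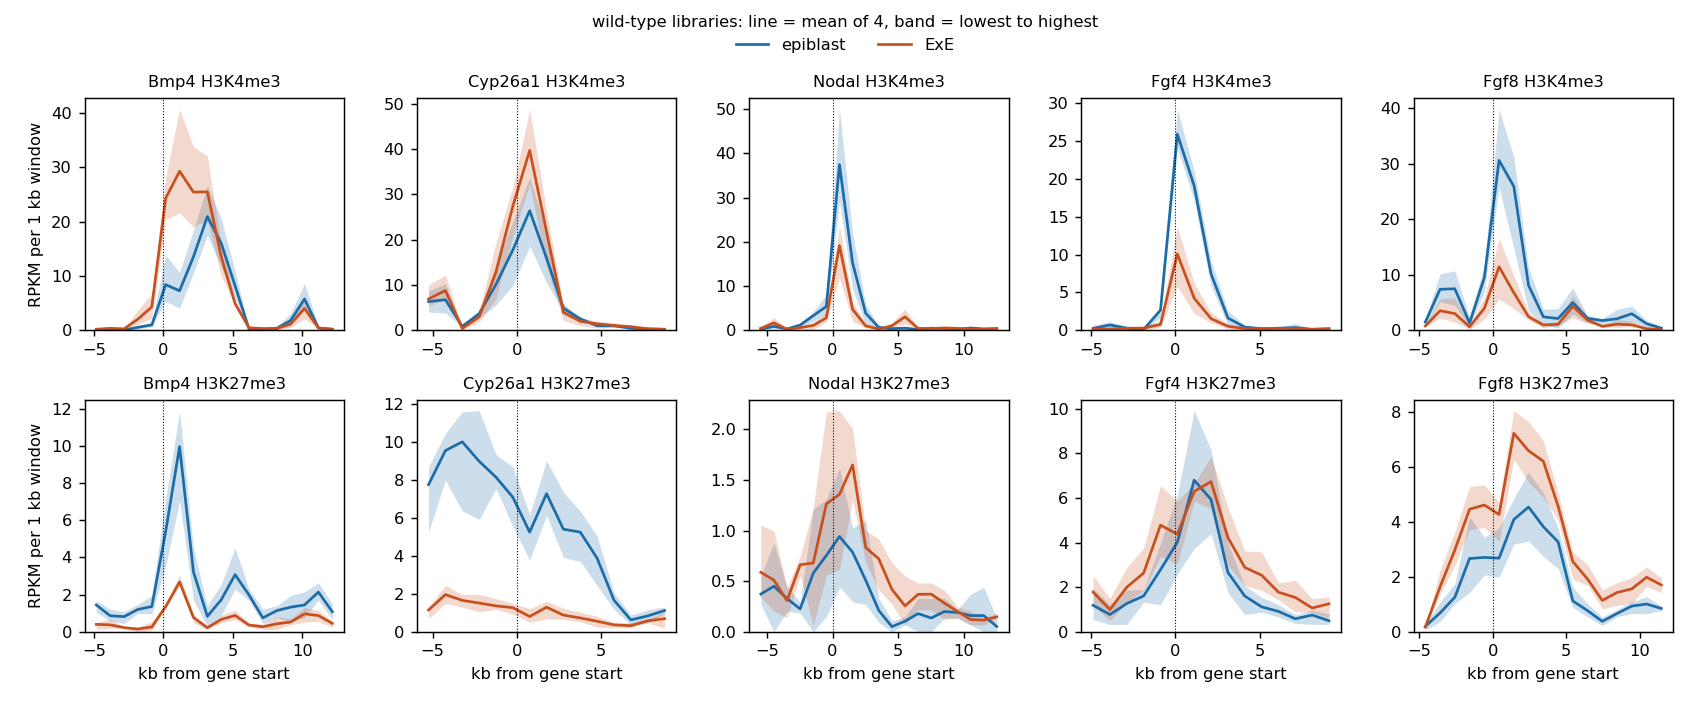
RPKM in 1 kb windows against distance from the gene start in kb for Bmp4, Cyp26a1, Nodal, Fgf4 and Fgf8 (H3K4me3 and H3K27me3). Lines are means of the 4 wild-type libraries of a tissue and bands their range. H3K27me3 in the epiblast lies above the ExE across Bmp4 and in 12 consecutive windows at Cyp26a1, and below it across most of Fgf8.

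Window by window, the tissues were compared without a fitted model, by asking where all 4 wild-type libraries of one tissue exceeded all 4 of the other. For H3K4me3 54 of the 497 windows (10.9%) were higher in ExE, against 4.13% of all windows, 25 of them in Fgfr2 and 14 in Pcsk6, the longest genes, and 29 (5.84%) were higher in epiblast, against 0.981%. For H3K27me3 48 windows (9.66%) were higher in ExE, against 5.73%, and 55 (11.1%) in epiblast, against 3.01%. For H3K36me3 77 windows (15.5%) were higher in ExE, against 2.61%, of which 38 were in Fgfr2 and 25 in Pcsk6, and 12 (2.41%) were higher in epiblast, against 3.5%. Neighbouring windows share reads of the same pools and are not replicates, and the shares of all windows include the windows between genes.

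Polycomb marking of the starts was common to the set. The deposited H3K27me3 peaks covered the start of all 10 genes in both ExE lists and in the CAST/B6 epiblast list and of 9 in the B6/CAST epiblast list, where Nodal was the exception. Over all 20558 genes, 31.9% and 36.4% of starts lay in H3K27me3 peaks in ExE and 21.7% and 24.2% in epiblast. H3K4me3 peaks covered 9 or 10 of the 10 starts, against 65.4% to 68.3% of all genes. The order of H3K27me3 at the starts in epiblast ran from Cyp26a1 (7.35 ± 1.29 RPKM, SD, n = 4) over Bmp4 (4.23 ± 1.21 RPKM), Fgf4 (4.23 ± 1.49 RPKM), Pcsk6 (3.52 ± 1.04 RPKM) and Fgf8 (3.33 ± 0.917 RPKM) to Nodal (0.658 ± 0.350 RPKM), with Wnt3, Lefty2, Fgfr2 and Furin between 1.24 and 2.70 RPKM. The 4 genes after Cyp26a1 did not differ beyond their spread. In ExE, Fgf8 (5.43 ± 0.639 RPKM) and Fgf4 (4.96 ± 0.899 RPKM) came first and did not differ beyond their spread, while Bmp4 stood at 1.05 ± 0.0592 RPKM and Cyp26a1 at 1.25 ± 0.232 RPKM.

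Other genes of the same pathways, listed by name, were read in the same fit. Their counts are to be read against the shares of all genes given above, which were 2.58% higher and 8.7% lower in ExE for H3K4me3, 8.54% and 11.4% for H3K27me3, and 30.7% and 5.72% for H3K36me3; the H3K36me3 counts higher in ExE for the Nodal (2 of 14), WNT (5 of 15) and retinoic acid (3 of 14) genes are near or below that share, as are the H3K27me3 counts of the Nodal genes (1 of 14 in each direction). Of 14 further Nodal pathway genes, H3K4me3 was lower in ExE at 3 and higher at none: the co-receptor Tdgf1 (-1.88 ± 0.28), the antagonist Cer1 (-1.41 ± 0.18) and Lefty1 (-1.30 ± 0.24; limma adjusted p = 0.00237, 0.00131 and 0.00846). H3K27me3 was higher at Tdgf1 (0.57) and lower at Lefty1 (-0.61), and H3K36me3 was higher at 2 and lower at 4, among them Tdgf1 (-0.53). The median H3K4me3 difference of the list was -0.32.

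Of 15 BMP pathway genes, H3K4me3 was higher in ExE at 3 and lower at none: the ligands Bmp8b (1.59 ± 0.20) and Bmp8a (0.71 ± 0.14) and the target Id2 (0.86 ± 0.19; limma adjusted p = 0.00132, 0.00939 and 0.0204). H3K27me3 was lower in ExE at 9 and higher at 1, with Id2 (-2.04 ± 0.19), Id1 (-1.97 ± 0.19) and the ligand Bmp7 (-1.17 ± 0.18) leading (limma adjusted p = 0.000275, 0.000321 and 0.00219). H3K36me3 was higher at 6 and lower at none, with Id2 at 1.25 ± 0.18 (limma adjusted p = 0.00202). The median H3K27me3 difference of the list was -0.61 and that of all genes -0.03.

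Of 15 measured WNT pathway genes, H3K4me3 was lower in ExE at 5, including the ligand Wnt3a (-1.51 ± 0.24) and the secreted inhibitor Sfrp1 (-1.21 ± 0.13), and higher at 1. H3K27me3 was lower at 3, the antagonist Dkk1 (-1.92 ± 0.17), the ligand Wnt7b (-1.06 ± 0.17) and Wls (-0.49 ± 0.15), which carries Wnt ligands out of the cell. H3K36me3 was higher at 5 and lower at 2. Of 16 FGF pathway genes, H3K4me3 was lower at 3, the ligands Fgf5 (-1.58 ± 0.21), Fgf15 (-1.49 ± 0.20) and Fgf17 (-1.26 ± 0.20), and higher at none. H3K27me3 was higher at 2, with Fgf5 at 1.06 ± 0.18, and lower at 4, with the receptors Fgfr3 (-1.20 ± 0.20) and Fgfr4 (-1.03 ± 0.21), and H3K36me3 was higher at 7 and lower at 2. Of 14 genes of retinoic acid metabolism and response, H3K4me3 was lower at 4, including Crabp2 (-1.14 ± 0.18), which binds retinoic acid, the hydroxylase Cyp26c1 (-1.04 ± 0.16) and the receptor Rarg (-0.92 ± 0.13). H3K27me3 was higher at 2, Stra6 (1.06 ± 0.19) and Rarg (0.95 ± 0.19), and lower at 4, with Cyp26c1, the neighbour of Cyp26a1, at -1.75 ± 0.19, and H3K36me3 was higher at 3. Each named difference passed the limma threshold over all genes, with adjusted p between 0.000229 and 0.0436.

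The tissue comparison was repeated in matDKO/CAST, which shares no library with the wild-type comparison but was fitted with it for 1 estimate of the spread. All 18 called differences had the same direction there, and 8 passed. H3K4me3 was lower in ExE at Fgf4 (13.9 and 10.4 RPKM in epiblast, 2.05 and 3.89 RPKM in ExE, -1.91 ± 0.27) and at Fgf8 (18.5 and 15.3 RPKM in epiblast, 3.45 and 5.72 RPKM in ExE, -1.81 ± 0.28; limma adjusted p = 0.00432 and 0.00606). These were 2 of 10 genes, against 5.56% of all genes, and none of the 10 was higher, against 0.671%. With the replicate number as a block the differences were -2.10 at Fgf4 and -1.998 at Fgf8. Only replicate 2 was present in both tissues, so that these values rest on 1 library pair and have no matDKO/CAST replication. At Bmp4 H3K4me3 was 7.00 and 6.44 RPKM in epiblast and 10.4 and 15.2 RPKM in ExE, a difference of 0.86 ± 0.25 that missed the threshold (limma adjusted p = 0.0830).

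H3K27me3 in matDKO/CAST was lower in ExE at 3 of 10 genes, against 1.78%, and higher at none, against 1.53%. Bmp4 had 2.97 and 2.67 RPKM in epiblast and 0.901 and 0.989 RPKM in ExE (-1.20 ± 0.14), Cyp26a1 6.52 and 3.05 RPKM and 0.937 and 1.05 RPKM (-1.74 ± 0.30), and Fgfr2 2.25 and 1.85 RPKM and 0.570 and 0.640 RPKM (-1.20 ± 0.16; limma adjusted p = 0.00723, 0.0197 and 0.0102). H3K36me3 was higher over 2 genes, Fgfr2 (0.49 ± 0.12) and Pcsk6 (0.38 ± 0.09), against 11.9%, and lower over Lefty2 (-0.72 ± 0.14), against 1.69% (limma adjusted p = 0.0398, 0.0314 and 0.0223). With 2 libraries per tissue these calls depended on single libraries: H3K4me3 was called at 1 gene without matDKO/CAST epiblast replicate 1 or ExE replicate 2, and H3K36me3 at 0 without matDKO/CAST epiblast replicate 2 and at 1 without ExE replicate 3 or any CAST/B6 library.

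Whether the loss of maternal DNA methylation went with a change in total signal was asked by comparing matDKO/CAST with the mean of the wild-type crosses in each tissue. None of the 10 genes was called in any of the 6 limma comparisons, and none with edgeR on recovered reads. Other settings made calls and also called more of all genes. For H3K4me3 in ExE 3 genes were called with aligned medians (6.23% of all genes). For H3K27me3 in epiblast 3 were called with only genes of at least 0.5 RPKM (20.5%) and 2 with aligned medians (6.47%). The replicate blocks lie within a cross, so that the blocked fit gives no mean difference between matDKO/CAST and wild type. In the main comparison the background in ExE was 0.0438% for H3K4me3, 0% for H3K27me3 and 0.0292% for H3K36me3, and in epiblast 0.0195%, 0.0973% and 0.131%. At an unadjusted p under 0.05 the counts were 0, 3 and 1 in ExE, where 2.76%, 11.1% and 10.2% of all genes passed, and 0, 4 and 3 in epiblast, where 4.84%, 22.1% and 13.1% did, in the same order of marks. The largest epiblast value was at Fgf4, where H3K27me3 was 2.76 and 1.69 RPKM in matDKO/CAST against 3.21, 2.70, 5.73 and 5.26 RPKM in wild type, with 1 value within and 1 below the wild-type range (-0.77 ± 0.20, limma adjusted p = 0.0813). Bmp4 H3K27me3 in epiblast differed by -0.48 ± 0.12 (limma adjusted p = 0.0789). Against B6/CAST alone, the cross of the same direction, both values were smaller, -0.37 ± 0.23 at Fgf4 and -0.16 ± 0.14 at Bmp4 (limma adjusted p = 0.511 and 0.634). Pcsk6 went from -0.70 to -0.38 and Cyp26a1 from -0.64 to -0.63, with no call (limma adjusted p = 0.481 and 0.411 against B6/CAST). The tissue difference itself differed between matDKO/CAST and wild type at none of the 10 genes, where the background was 0% for H3K4me3 and H3K27me3 and 0.00486% for H3K36me3, and at an unadjusted p under 0.05 at 0, 2 and 1 genes, where 1.54%, 9.70% and 6.73% of all genes passed.

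Parental alleles were compared in peaks with at least 20 reads in an allele column, by edgeR's quasi-likelihood test of maternal against paternal read counts in each cross. A peak was called where both wild-type crosses passed the adjusted threshold of 0.05, as imprinted when both crosses favoured one parent, and as strain-specific when they favoured one strain. The gene label of these tables was checked first. Of 276 peaks that carried the name of a signalling gene, 217 were labelled Fgfr2 but lay more than 5 kb from it: the label ran over 2.97 Mb of chromosome 7, while the RefSeq gene is 104 kb long. Conversely 25 of the 81 peaks at the 10 genes carried another name. Results are therefore given for the peaks at the genes, 70 of which were informative, and separately for the labels.

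By label, with the calls for H3K27me3 and H3K36me3 in ExE resting on single libraries, 3 of 33 informative H3K27me3 peaks in ExE were called, against 5.67% of all informative peaks, and 1 of 22 H3K36me3 peaks in ExE, against 1.35%. Without CAST/B6 replicate 1 none of the H3K27me3 peaks and without B6/CAST replicate 1 only 1 was called, and without any 1 wild-type library the H3K36me3 peak was not. Labelled H3K4me3 peaks gave 0 calls of 57 in ExE (background 4.27%) and 0 of 45 in epiblast (0.949%), and 0 were also called with DESeq2. In epiblast 0 of 27 H3K27me3 peaks (1.33%) and 0 of 27 H3K36me3 peaks (0.488%) were called, with 0 by DESeq2. Maternal and paternal reads come from the same library, and with the library as a block 1 H3K27me3 peak was called in epiblast and 5 in ExE, the other counts being unchanged. The share of all peaks called with the block is not given here, so that these counts have no background. The called peaks lay outside the Fgfr2 gene. The H3K27me3 peaks chr7:132061000-132177500 over Cpxm2, chr7:132183500-132227500 and chr7:132396500-132550500 had more paternal reads in both crosses, at 57.9%, 56.4% and 53.8% paternal in B6/CAST and 57.5%, 55.0% and 56.6% in CAST/B6. The H3K36me3 peak chr7:130657000-130768500 over Tacc2 had more CAST reads in both crosses.

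Among the 70 informative peaks at the genes, 1 was called. It was 1 of 12 H3K27me3 peaks in ExE, where 5.67% of all informative peaks were called, so that the count itself is near the background. It is an H3K27me3 domain of 331 kb in the ExE, chr7:144583000-144914000, over Ano1, Fgf4, Fgf15 and Fgf3, of which the Fgf4 gene occupies 1.17%. The paternal allele carried 2169 of its reads and the maternal 1233 in B6/CAST replicate 1, and 1666 and 1011 in replicate 2. In CAST/B6 the counts were 4124 and 2182, and 2278 and 1348. The paternal share was thus 63.8%, 62.2%, 65.4% and 62.8% in the 4 wild-type libraries, with Wilson 95% intervals inside 60.4% to 66.6%, against 49.4% to 50.9% over all autosomal peaks of the same libraries. The log2 ratio of maternal over paternal stood at -0.85 ± 0.07 for B6/CAST and -0.82 ± 0.07 for CAST/B6 (edgeR adjusted p = 1.02e-15 and 2.60e-19), and it passed in each alternative that was run for this peak, from -0.73 to -0.91.

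In matDKO/CAST the same domain had 1208 paternal and 1464 maternal reads in replicate 2 and 929 and 1030 in replicate 3, or 45.2% and 47.4% paternal, where all autosomal peaks of these libraries together stood at 44.2% and 46.9%. Relative to those libraries the log2 ratio was -0.06 ± 0.13 (edgeR adjusted p = 0.904). The bias in matDKO/CAST differed from that in B6/CAST by 0.80 ± 0.14 (edgeR interaction, adjusted p = 3.94e-05), against a background of 0.742% of H3K27me3 peaks in ExE. Among labelled peaks this difference was called at 1, and at 4 with the library as a block, among them chr7:132183500-132227500 (0.57, adjusted p = 0.0220) and chr7:132396500-132550500 (0.39, adjusted p = 0.00262). The 0.742% is from the fit without the block, and the share of all peaks with the block is not given here. With either B6/CAST library left out the difference was 0.74 and 0.86 and did not pass (adjusted p = 0.260 and 0.0716). In matDKO/CAST the authors had added reads assigned to 129 to the maternal reads. The total H3K27me3 at the Fgf4 start in ExE was 5.09 and 3.59 RPKM in matDKO/CAST, the second below the 4 wild-type libraries, and differed from wild type by -0.18 ± 0.20 (limma adjusted p = 0.756). The intervals cover counting error only.

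**Figure D4:**
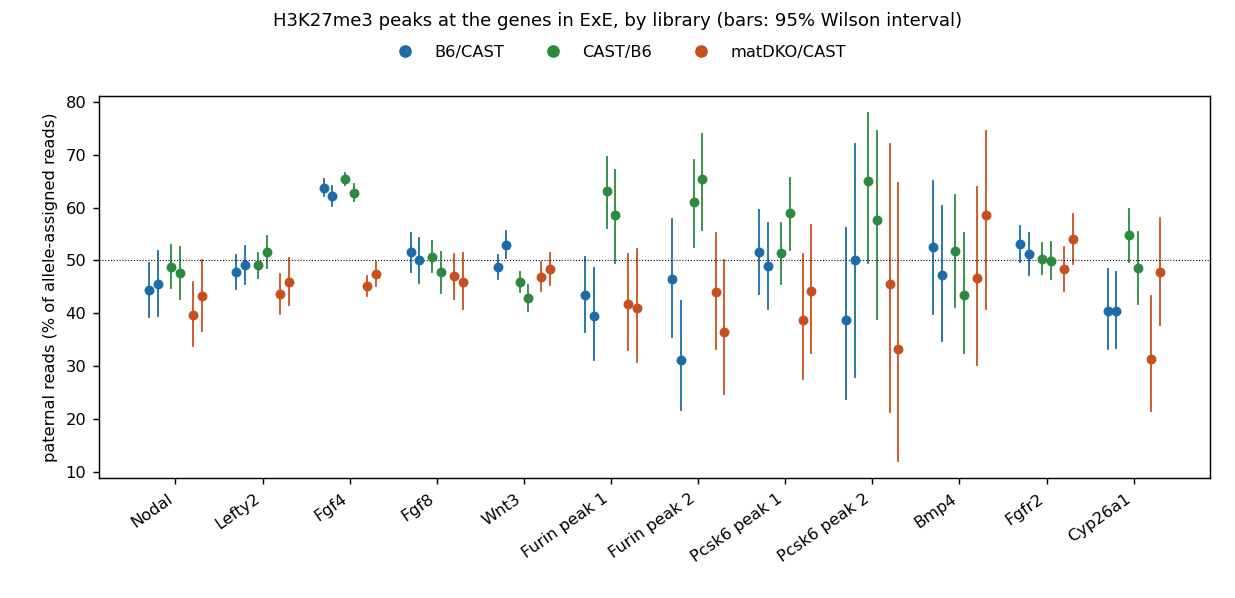
Paternal share of allele-specific reads, in percent, at the 12 H3K27me3 peaks in ExE that lie at the 10 genes, for each library of the 3 crosses with Wilson 95% intervals. Wild-type libraries at the Fgf4 domain sit between 62.2% and 65.4%, and the 2 matDKO/CAST libraries at 45.2% and 47.4%.

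The remaining peaks at the genes were not called. Over the small Fgf4 H3K27me3 peak in epiblast (chr7:144855000-144869500) B6/CAST gave a log2 ratio of maternal over paternal of 0.38 ± 0.34 and CAST/B6 one of -0.51 ± 0.20 (edgeR adjusted p = 0.812 and 0.0640). H3K4me3 at Fgf4 in ExE gave -0.01 ± 0.26 and 1.00 ± 0.40 (edgeR adjusted p = 0.993 and 0.150), and neither cross passed. The H3K27me3 peak over the Furin start in ExE, and one over Man2a2 and Fes that reaches only the 5 kb flank of Furin, had more reads from the B6 allele in each cross and passed in CAST/B6 only: chr7:80404000-80418000, over the start, gave 0.58 ± 0.25 in B6/CAST and -0.75 ± 0.21 in CAST/B6, and chr7:80369000-80385000, in the flank, gave 0.39 ± 0.18 and -0.65 ± 0.18 (edgeR adjusted p = 0.136, 0.00413, 0.149 and 0.00466). At Wnt3, the H3K27me3 peak chr11:103701000-103816000 in ExE passed in CAST/B6 (0.33 ± 0.08) and not in B6/CAST (-0.12 ± 0.08; edgeR adjusted p = 0.000522 and 0.383). The epiblast peak chr11:103768500-103815000 also passed in CAST/B6 (0.45 ± 0.13) and not in B6/CAST (0.15 ± 0.24; edgeR adjusted p = 0.00506 and 0.910), and for both peaks whether the crosses differ was not tested. A difference in parental bias from B6/CAST to matDKO/CAST was called at none of the labelled H3K4me3 peaks (background 0.892% in ExE and 0.674% in epiblast), of the H3K36me3 peaks (0.363% and 0.163%) or of the H3K27me3 peaks in epiblast (0.179%).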

How the data were processed

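The authors trimmed reads with Trim Galore and aligned them with Bowtie2 2.3.2 to GRCm38 with strain variants masked. The deposited RPKM values are per 1 kb window with input not subtracted, the deposited counts are reads per peak and allele, and the score column of the deposited peak lists is 0 throughout, so that these gave positions only. The 10 genes and the pathway and marker lists were chosen with earlier results of these data known. Of the lists, at most 3 genes per list and mark were named, those past the threshold with the largest difference. Gene means, log2(RPKM + 0.5), were tested with limma 3.58.1 (R 4.3.3) over all crosses and both tissues, and allele counts with edgeR 4.0.16; DESeq2 1.42.0, edgeR on recovered reads, other scalings, filters, regions, pseudocounts (0.1 and 1) and left-out libraries were alternatives. Same-numbered H3K4me3 libraries of the tissues deviated together (correlations 0.399 to 0.585), and the lowest correlation was -0.214 for H3K27me3 and 0.0552 for H3K36me3. The blocked wild-type H3K4me3 values are therefore given, together with the Lefty2 results, while the fit without the block is the main one for each mark. Scripts were tested on simulated data.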

Additional observations from a re-analysis of the deposited data

Results flagged for a closer look

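Among 60 groups of 4 wild-type libraries, 2 had a library far from the other three, where chance gives about 1 in 20. H3K27me3 at the Fgfr2 start was 1.38 RPKM in B6/CAST epiblast replicate 1, below the 2.00 to 2.12 RPKM of the other epiblast libraries (gap over range 0.846). H3K27me3 at the Lefty2 start was 2.59 RPKM in CAST/B6 epiblast replicate 1, above the 1.95 to 2.03 RPKM of the others (0.873).

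The parental bias of H3K27me3 in ExE differed between matDKO/CAST and B6/CAST at 2 peaks. At the Fgf4 domain, chr7:144583000-144914000, the difference in log2 maternal over paternal was 0.80 ± 0.14 (edgeR adjusted p = 3.94e-05). At chr7:132061000-132177500, over Cpxm2 and labelled Fgfr2, it was 0.64 ± 0.16 (edgeR adjusted p = 0.0130), with a paternal share of 57.9% for B6/CAST against 43.6% for matDKO/CAST, where all autosomal peaks stood at 49.4% and 49.9% against 44.2% and 46.9%, and did not pass with DESeq2 (adjusted p = 0.122) or without either B6/CAST library (0.483 and 0.621) or matDKO/CAST replicate 2 (0.0969).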

How the results depend on the processing

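Counts are genes of 10, or labelled peaks, and the calls over all genes changed under the same settings. For wild-type H3K4me3 they were 530 higher and 1789 lower in the main fit and 617 and 2303 of 14158 genes with the filter. With aligned medians they were 6936 and 1904, with the percentile scaling 4650 and 2107, and with edgeR 1428 and 3237. For H3K36me3 they were 6306 and 1176, and 1209 and 396 with the percentile scaling. The matDKO/CAST tissue counts are given without such shares. For H3K4me3 the wild-type tissue count of 5 was 8 with only genes of at least 0.5 RPKM, 9 with aligned medians, 8 with the percentile scaling, 9 with edgeR, 2 in B6/CAST alone and 3 to 5 with a library left out; the matDKO/CAST count of 2 was 6, 9, 5 and 9 under the first 4 and 1 to 3 with a library left out. Aligned medians gave 3 genes, not 0, for matDKO/CAST against wild type in ExE. For H3K27me3 the wild-type count of 6 was 3 in either cross alone, the matDKO/CAST count of 3 was 6 with the filter, 5 with the percentile scaling, 6 with edgeR and 5 over the gene and 5 kb, and matDKO/CAST against wild type in epiblast gave 3 with the filter, 2 with aligned medians and 0 to 3 with a library left out, against 0. For H3K36me3 the wild-type count of 7 was 3 with the percentile scaling and 1 in CAST/B6 alone, and the matDKO/CAST count of 3 was 6 with the filter, 0 with the percentile scaling and 0 to 4 with a library left out.

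With the replicate number as a block, the wild-type counts were 7 for H3K4me3, 7 for H3K27me3 and 8 for H3K36me3 (10.8%, 27.96% and 37.9% of all genes). For H3K4me3 the CAST/B6 part of that fit rests on the replicate 2 pair alone. The matDKO/CAST count for H3K36me3 was 3 (15.7%), at Furin, Pcsk6 and Lefty2 and not at Fgfr2. For H3K4me3 and H3K27me3 only replicate 2 was present in both matDKO/CAST tissues, so that no count is given. Because the blocks lie within a cross, matDKO/CAST against wild type is not given with the block. With the library as a block, H3K27me3 allelic peaks numbered 5 in ExE and 1 in epiblast and the bias difference in ExE 4.

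In ExE the 3 H3K27me3 allelic peaks were 1 with DESeq2, 16 in a joint fit of the crosses, 1 among peaks at the genes (chosen after seeing the data) and 0 to 2 with a library left out. The bias difference, at 1 peak, was 0 with DESeq2 and 0 to 2 with a library left out. The H3K36me3 peak was 0 with DESeq2, at the genes and with any library left out. The joint fit gave 4 for H3K4me3 in ExE and 2 for H3K27me3 in epiblast, against 0. The shares of all peaks called in the joint fit and with the library as a block are not given here. The counts of labelled peaks under these settings therefore have no background.

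The uncalled Furin H3K4me3 difference of -0.06 turned to 0.19 with aligned medians, 0.13 with the percentile scaling, 0.018 with the replicate block and 0.63 with 1 kb around the start, and ranged from -0.16 to 0.039 with a library left out. The uncalled H3K27me3 differences turned to -0.084 at Wnt3 and -0.057 at Lefty2 with the percentile scaling, and ranged with a library left out from -0.011 to 0.12 at Wnt3 and -0.010 to 0.16 at Lefty2. The causes were not tested. Peak widths have no replicate check, and the effect of depth on the allelic calls was not tested.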
